A study of Rattus norvegicus with 6 samples.

Results

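AP-1 subunits and other early response transcription factors were followed in primary endothelial cells of the rat abdominal aorta, the cells that line the vessel. The set was a list of 7 genes given by Ensembl identifier: the AP-1 subunit genes Fos, Jun, Junb and Fosl1, and the genes Egr1, Atf3 and Myc. Of the 7 identifiers, 6 had a row in the deposited table of 32879 genes and gene models. The row of Junb (ENSRNOG00000042838) was absent from it, so no value of Junb is given. Jun, Fosl1, Egr1 and Myc held enough counts to be tested, and Fos and Atf3 did not.

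The study set 3 wild-type libraries (WT) against 3 libraries labelled as lacking or depleted of miR-337-3p, a microRNA (KD), to map differences in gene expression. The labels do not describe the perturbation in one way: the titles and the series design name a knockout, whereas under genotype a knockdown is given. The treatment text, which is the same for all 6 libraries, names a transfected inhibitor of the human miR-337-3p at 100 nM, so what the WT cells received is not settled. All cells were kept on fibronectin in a commercial endothelial medium. Age, sex and number of donor rats are not in the labels, and nothing says that the 3 libraries of a group came from separate cultures. The p-values below therefore measure the spread between these libraries, which may be technical.

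AP-1 is a transcription factor built from pairs of basic leucine zipper proteins. Jun proteins can pair with each other or with a Fos protein, whereas Fos proteins need a Jun partner. Fos and Egr1 belong to the immediate early genes, whose transcripts appear soon after serum, growth factors or mechanical strain and are degraded quickly, and Fosl1 (Fra-1) typically appears later and is sustained by ERK signalling. In vascular endothelium these factors are known for responses to shear stress, injury and inflammatory signals.

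The rat miR-337-3p is shown because the labels name miR-337-3p as the perturbed molecule. The inhibitor was named for the human form, whose sequence was not compared with the rat one. The human seed may therefore differ from the one marked. Capitals mark the seed of the rat form, bases 2 to 8, which a microRNA uses to recognise its targets (RefSeq, build GRCr8).
rno-miR-337-3p: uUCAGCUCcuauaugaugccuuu

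Upstream sequence is shown for the tested members that have an entry in the RefSeq promoter table, Fosl1 and Egr1. Each is the 250 bases before the annotated start site on the plus strand of build GRCr8, whereas the counts were made on mRatBN7.2. Capitals mark every match on either strand to the AP-1 motif TGANTCA, to the cAMP response element core TGACG and to the CArG box, the binding motif of serum response factor. The Fosl1 stretch is chr1:212183635-212183884 and the Egr1 stretch is chr18:26736828-26737077.
Fosl1: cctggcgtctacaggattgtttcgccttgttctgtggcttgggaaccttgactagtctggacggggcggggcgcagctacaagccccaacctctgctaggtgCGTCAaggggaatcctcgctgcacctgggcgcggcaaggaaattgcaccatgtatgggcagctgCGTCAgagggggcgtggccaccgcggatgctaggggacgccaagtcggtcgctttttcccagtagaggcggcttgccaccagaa
Egr1: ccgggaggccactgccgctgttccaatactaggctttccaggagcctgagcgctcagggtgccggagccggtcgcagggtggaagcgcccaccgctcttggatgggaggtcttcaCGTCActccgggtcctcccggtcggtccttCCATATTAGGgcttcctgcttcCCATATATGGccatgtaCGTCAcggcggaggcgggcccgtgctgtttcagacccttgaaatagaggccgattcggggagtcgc
The Egr1 stretch held 2 CArG boxes, CCATATTAGG and CCATATATGG, and 2 matches to the cAMP response element core. The Fosl1 stretch held 2 matches to that core and no CArG box. TGANTCA was in neither, and no matches overlapped. Of 33465 upstream stretches of the same length, 1.5% held a CArG box, 18.2% the cAMP response element core and 6.34% TGANTCA. These matches describe the letters in the window and were not linked to any count.

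Libraries held between 5037127 and 5385434 estimated counts. KD replicate 1 stood apart from the other KD libraries: the mean squared difference between libraries, in units in which sampling noise alone gives 1 per gene, was 5.88 between KD replicates 1 and 2 and 3.88 between 1 and 3, against 2.20 between 2 and 3. WT replicate 3 differed from WT replicates 1 and 2 by 4.46 and 3.35, against 2.02 between those. No library was a copy of another of its group by this measure. Fold changes of the tested members without KD replicate 1 stand beside each result. Endothelial markers and markers of other vascular cells were not analysed here, because the table carries no gene symbols and 0 of its rows could be paired with the reference gene list. Lower transcript per cell and fewer cells that express a gene cannot be told apart in these bulk libraries.

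Jun, the central AP-1 subunit and a substrate of the JNK kinases, rose in KD cells. Levels are given as CPM, the share of a library's total count scaled in the usual way, with no adjustment for gene length. Jun (ENSRNOG00000026293) stood at 374, 377 and 385 CPM in WT replicates 1, 2 and 3 and at 427, 577 and 574 CPM in KD replicates 1, 2 and 3. All 3 KD libraries lay above all 3 WT libraries, and KD replicate 1 lay closest to the WT values. Means were 379 ± 5.86 CPM in WT and 526 ± 86.0 in KD (SD, n = 3 each). The fitted change was 1.43-fold, or 0.52 ± 0.10 (SE) on the log2 scale, with an adjusted p of 0.00043 (edgeR quasi-likelihood test, adjustment after Benjamini and Hochberg). A rise of this kind was common in these data: 11.0% of the 12852 tested rows passed as higher in KD and 10.3% as lower. On CPM, KD lay wholly above WT in 14.9% of these rows and wholly below in 20.5%. CPM uses library totals, whereas the fit rescales them, so the 2 pairs of shares are not on the same scale. Among all rows that passed in either direction, the median change was 1.63-fold, and 67.4% changed by more than Jun did.

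The size of the Jun difference depended on KD replicate 1, and its call did not. Without that library the log2 fold change was 0.66 (edgeR adjusted p = 1.8e-06). Over the 15 alternative fits it lay between 0.45 and 0.66, with edgeR, limma or DESeq2 adjusted p between 1.1e-06 and 0.0081. The coefficient of variation of Jun was 1.55% among WT libraries, where counting error alone would give 2.25%, and 16.4% among KD libraries, where counting error would give 1.92%. WT libraries thus varied no more than counting allows, and KD libraries varied beyond it.

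**Figure D1:**
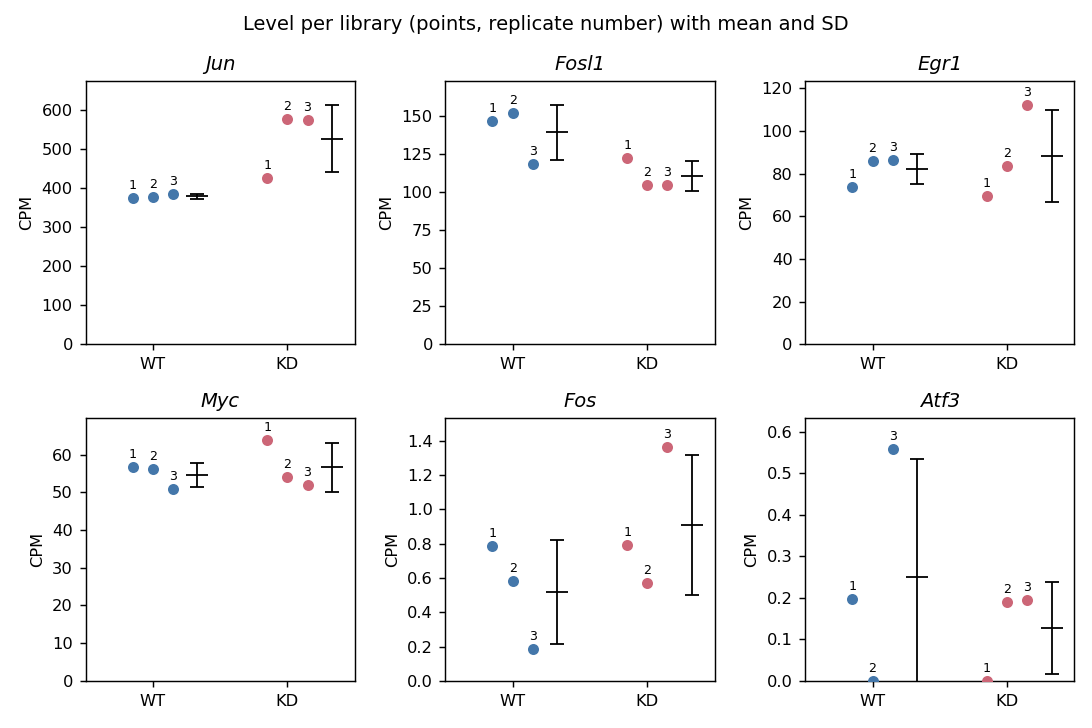
Level of each of the 6 measured genes in CPM (vertical axis, from 0) in every WT and KD library; points are libraries with their replicate number, and the bar beside them is the mean with the SD (n = 3). Jun shows no overlap between groups, Fosl1 is lower in KD with KD replicate 1 above WT replicate 3, and Fos and Atf3 lie at levels of a few counts.

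Fosl1, which encodes Fra-1, a Fos family partner of Jun that lacks the strong activation domain of Fos, fell in KD cells by a small margin. Fosl1 (ENSRNOG00000020552) stood at 147, 152 and 118 CPM in WT replicates 1, 2 and 3 and at 122, 105 and 105 CPM in KD replicates 1, 2 and 3. The groups overlapped: KD replicate 1 lay above WT replicate 3, while KD replicates 2 and 3 lay below every WT library. Means were 139 ± 18.1 CPM in WT and 110 ± 10.1 in KD (SD, n = 3 each). The fitted log2 fold change of -0.28 ± 0.10 (SE) put KD at 0.822 times the WT level (edgeR adjusted p = 0.039). Of the rows past the threshold 96.0% changed by more.

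The Fosl1 call stood close to the threshold. It was lost with DESeq2, at a log2 fold change of -0.28 (adjusted p = 0.071). It was also lost when either of the high WT libraries was left out, replicate 1 (edgeR adjusted p = 0.12) or replicate 2 (0.22), and when either of the low KD libraries was, replicate 2 (edgeR adjusted p = 0.13) or replicate 3 (0.16). The log2 fold change was -0.37 without WT replicate 3, the lowest WT library (edgeR adjusted p = 0.0047). It was -0.35 without KD replicate 1, the highest KD library (edgeR adjusted p = 0.013). The direction was negative in all 15 alternative fits.

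Fos, the founding Fos family member and the classic immediate early gene, was at the edge of detection. Fos (ENSRNOG00000008015) held 4, 3 and 1 counts in WT replicates 1, 2 and 3 and 4, 3 and 7 counts in KD replicates 1, 2 and 3. The groups shared values, and KD replicate 3 held the most. Summed over libraries, WT held 8 counts and KD 14, or 1.77 times as many per library total (95% exact Clopper-Pearson interval 0.692 to 4.86). The interval covers counting error only, no molecular identifiers being described, and holds falls as well as rises. Fos failed the count filter, which asked for about 1.94 CPM, or 10 counts, in at least 3 libraries. With no filter its log2 fold change of 0.84 did not pass (edgeR adjusted p = 0.54).

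Egr1, a zinc finger factor induced in endothelium by shear stress and injury, did not pass the test. Egr1 (ENSRNOG00000019422) stood at 73.8, 86.0 and 86.6 CPM in WT replicates 1, 2 and 3 and at 69.5, 83.5 and 112 CPM in KD replicates 1, 2 and 3. The KD libraries spanned the WT range on both sides, with replicate 1 below every WT library and replicate 3 above. Means were 82.1 ± 7.21 CPM in WT and 88.3 ± 21.7 in KD (SD, n = 3 each). The difference came to 0.15 ± 0.13 (SE) on the log2 scale (edgeR adjusted p = 0.47). The 95% interval from limma-voom ran from -0.16 to 0.41, or 0.898 to 1.33 times the WT level, with no adjustment for the number of rows. The sign of the difference rested on KD replicate 3: without it the log2 fold change was -0.064 (edgeR adjusted p = 0.80). Without KD replicate 1 it came to 0.30 (edgeR adjusted p = 0.085).

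Egr1 was also the most variable of the tested members among KD libraries. Its coefficient of variation there was 24.5%, where counting error alone would give 4.68%. Among WT libraries it was 8.78% against 4.83% from counting. The highest KD library held 1.61 times the CPM of the lowest, and the highest WT library 1.17 times that of the lowest. Whether the spread itself differed between the groups was not tested.

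Atf3, a factor of the same leucine zipper class that is induced by many forms of cell stress and often represses its targets, was near the detection limit in both groups. Atf3 (ENSRNOG00000003745) held 1, 0 and 3 counts in WT replicates 1, 2 and 3 and 0, 1 and 1 counts in KD replicates 1, 2 and 3. The groups overlapped. A count of 0 allows up to 0.583 CPM in WT replicate 2 and 0.596 CPM in KD replicate 1, the level of 3 counts. The totals of 4 WT and 2 KD counts gave 0.505 times as many per library total in KD (95% exact interval 0.0457 to 3.52). The interval covers counting error only and holds falls as well as rises, so no direction can be given at this depth. With no filter the gene did not pass (edgeR adjusted p = 0.75).

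Myc, which pairs with Max to drive genes of growth and ribosome production, did not pass the test either. Myc (ENSRNOG00000004500) stood at 56.8, 56.1 and 50.9 CPM in WT replicates 1, 2 and 3 and at 63.9, 53.9 and 51.9 CPM in KD replicates 1, 2 and 3. KD replicate 1 was the highest of the 6 libraries, and the other KD values lay within the WT range. Means were 54.6 ± 3.21 CPM in WT and 56.6 ± 6.43 in KD (SD, n = 3 each). The difference came to 0.098 ± 0.10 (SE) on the log2 scale (edgeR adjusted p = 0.56). CPM means use library totals, whereas the fit rescales them. With totals alone the log2 fold change was 0.052 (edgeR adjusted p = 0.79). The 95% interval from limma-voom ran from -0.12 to 0.30, or 0.921 to 1.24 times the WT level. Without KD replicate 1 the log2 fold change was 0.0089 (edgeR adjusted p = 0.97). It came to 0.065 without WT replicate 3 (edgeR adjusted p = 0.75). The WT spread of 5.88% was about that of counting error, 5.93%. Among KD libraries the spread was 11.4%, where counting error alone would give 5.86%.

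**Figure D2:**
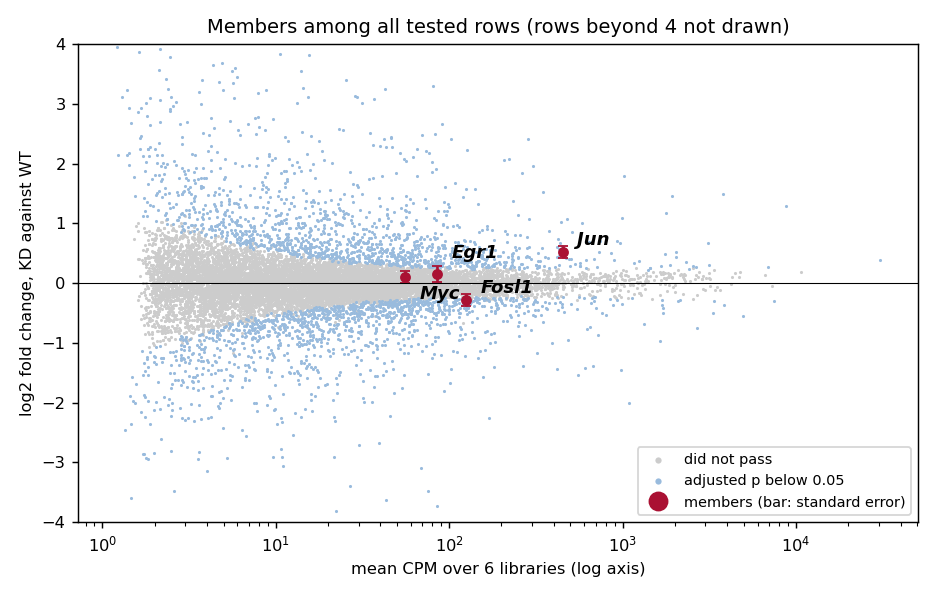
Log2 fold change of KD against WT (vertical axis) against mean CPM over the 6 libraries (horizontal log axis) for all tested rows, in grey where the adjusted p was not below 0.05 and in blue where it was; red points are the 4 tested members with their standard error. Jun lies above the grey band at its level, Fosl1 at the lower edge, and Egr1 and Myc inside it.

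Of the 4 tested members, 1 rose, 1 fell and 2 did not pass, beside 21.2% of all tested rows that passed in either direction. The median log2 fold change was 0.12 over the 4 members and -0.0033 over all tested rows. With so few members this count says nothing about the group as such. Jun rose and Fosl1 fell, but the Fosl1 groups overlapped and its call was lost in 5 of the 15 alternative fits.

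Ratios within a library do not depend on how libraries are scaled to each other, and gene length cancels when a ratio is compared between groups. The ratios with Jun or Fosl1 below, other than Myc to Jun, were chosen after the levels had been seen and are given without a test. The Fosl1 to Jun count ratio was 0.392, 0.403 and 0.307 in WT replicates 1, 2 and 3 and 0.286, 0.181 and 0.182 in KD replicates 1, 2 and 3. All KD libraries lay below all WT libraries, with KD replicate 1 just under WT replicate 3. The mean log2 difference was -0.79, and it was -1.004 without KD replicate 1 and -0.91 without WT replicate 3. It was smaller without any other library: -0.68 without KD replicate 2 or KD replicate 3, -0.73 without WT replicate 1 and -0.71 without WT replicate 2.

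The ratio of Egr1 to Jun was 0.217 ± 0.0170 in WT and 0.168 ± 0.0256 in KD (SD, n = 3 each), and the groups did not overlap, though KD replicate 3 at 0.195 came close to WT replicate 1 at 0.197. Myc to Jun was 0.144 ± 0.0106 in WT and 0.111 ± 0.0335 in KD (SD, n = 3 each). Here KD replicate 1, at 0.150, lay among the WT values, while KD replicates 2 and 3 stood at 0.0934 and 0.0904. The mean log2 difference of Myc to Jun was -0.41, and -0.65 without KD replicate 1. It was -0.31 without KD replicate 2 and -0.28 without KD replicate 3. Leaving out WT replicate 1, 2 or 3 gave -0.38, -0.39 and -0.48. The ratio of Myc to Fosl1 was separate in the groups, 0.396 ± 0.0315 in WT and 0.512 ± 0.0139 in KD (SD, n = 3 each). These ratios follow from the levels above and are no separate result. How often ratios of other rows separate the groups was not counted.

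**Figure D3:**
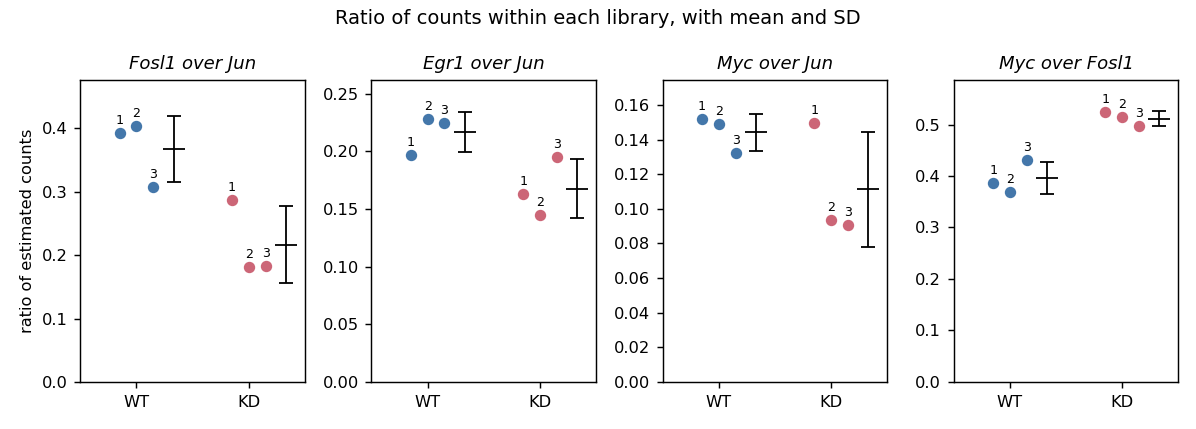
Ratio of the estimated counts of 2 genes within each library (vertical axis, from 0) for Fosl1 over Jun, Egr1 over Jun, Myc over Jun and Myc over Fosl1; points are libraries with their replicate number, and the bar beside them is the mean with the SD (n = 3). KD libraries lie apart from WT libraries for Fosl1 over Jun, Egr1 over Jun and Myc over Fosl1. Those ratios were chosen after the levels had been seen, and how often ratios of other rows separate the groups was not counted. Among single tested rows, KD lay wholly above WT on CPM in 14.9% and wholly below in 20.5%. KD replicate 1 lies among the WT libraries for Myc over Jun.

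KD replicate 1 was the KD library nearest to WT for Jun and the highest KD library for Fosl1 and Myc, and it was the lowest for Egr1. KD replicates 2 and 3 had nearly equal Jun, at 577 and 574 CPM, and nearly equal Fosl1, but 83.5 against 112 CPM of Egr1. Across the 6 libraries Jun and Fosl1 had a Pearson r of -0.86 on log2(CPM + 1), Egr1 and Myc of -0.76, Egr1 and Fosl1 of -0.47 and Myc and Jun of -0.28. Egr1 and Jun had 0.55, and Myc and Fosl1 0.37. These values describe 6 libraries in 2 groups, and differences between the groups enter them.

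The rows most like Jun over the 6 libraries were ENSRNOG00000002125 and ENSRNOG00000002267, for which no symbol was at hand. They had the highest Pearson r with Jun on log2(CPM + 1), 0.9998 and 0.9952, among 7430 Ensembl rows with a mean of at least 10 CPM. Of the 7430 rows, 177 (2.38%) reached 0.9. ENSRNOG00000002125 stood at 93.1, 93.9 and 94.9 CPM in WT replicates 1, 2 and 3 and at 105, 140.1 and 139 CPM in KD replicates 1, 2 and 3. Since it was picked for its likeness to Jun, its order of libraries was fixed by that choice. ENSRNOG00000002267 went from 131 ± 0.552 to 164 ± 16.9 CPM (SD, n = 3 each). Both r values were the highest of 7430 over only 6 libraries in 2 groups, and whether these rows are linked to Jun was not tested.

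The tested members rest on estimates that are in part fractional. Counting as whole only values printed with no decimals (tolerance 0), Jun had a fractional value in all 6 libraries, Fosl1 a whole one in 1, Egr1 in 3 and Myc in 4, while all Fos and Atf3 values were whole. The source of the fractions is not given, and whether reads of Jun were shared with other rows cannot be followed here. Fits by setting are drawn for the 4 tested members.

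**Figure D4:**
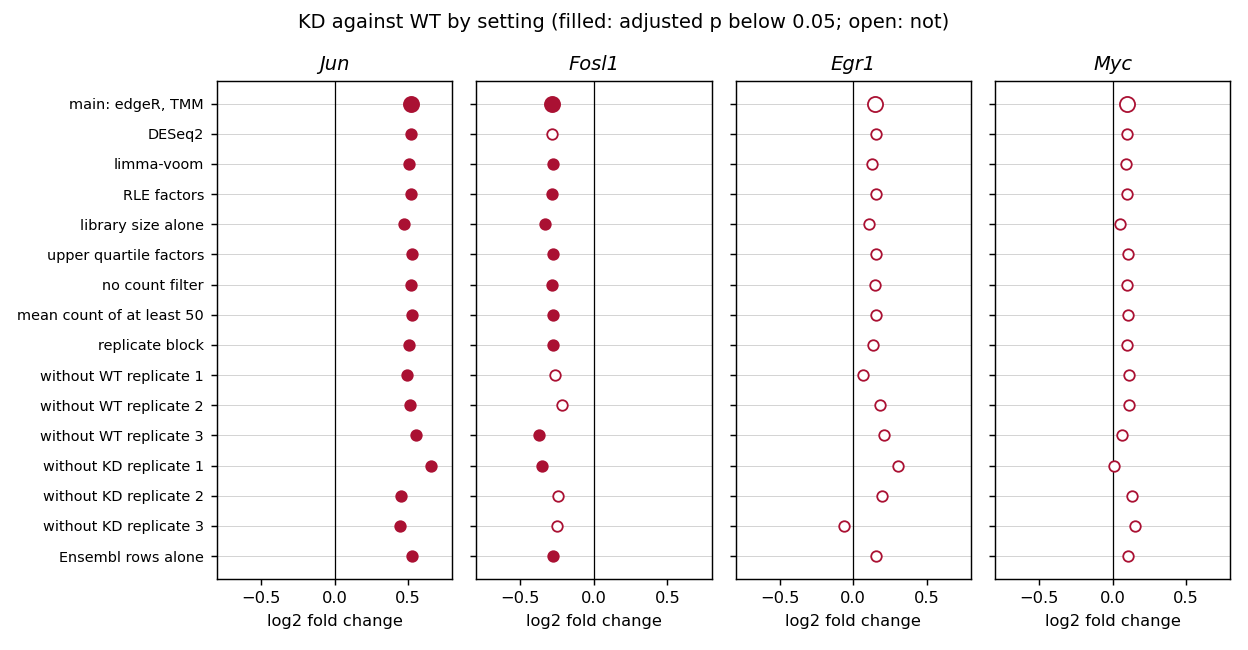
Log2 fold change of KD against WT (horizontal axis) for Jun, Fosl1, Egr1 and Myc under each setting (rows); filled points have an adjusted p below 0.05, open points do not, and the larger point is the reported fit. Jun is filled in every row, Fosl1 is open in 5 of the 15 alternatives, Egr1 crosses 0 without KD replicate 3, and Myc is open in every row.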

How the data were processed

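Per gene and library, the authors deposited estimated counts without normalization, as judged from the values: 21.6% are not whole numbers (tolerance 0). The build was mRatBN7.2, per the submitters' processing notes; for aligner, counter and strand setting, nothing is given in the sources used here. Counts were rounded and tested over all rows by edgeR's quasi-likelihood test (edgeR 4.0.16, R 4.3.3; rows kept by filterByExpr, TMM scaling, no covariate), with p adjusted after Benjamini and Hochberg over 12852 rows and a threshold of 0.05. A standard error is the size of the log2 change over the square root of its F. CPM used library totals. Intervals came from limma-voom (limma 3.58.1) or were exact for counts. DESeq2 1.42.0, limma-voom, other scalings and filters, a block for replicate number and fits without single libraries were alternatives. Scripts were tested on simulated data. The members and lists were chosen with earlier results of these data known. All 7 members were to be named, with the 2 Ensembl rows most like the first tested member. Member symbols came with the list of identifiers. Lists of related genes by symbol were not run, as no table paired identifiers with symbols. Promoter entries matched 3 of 7 symbols, Junb among them, which has no counts. Ratios over Fos rest on 1 to 7 Fos counts per library and are not reported.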

Additional observations from a re-analysis of the deposited data

How the results depend on the processing

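Jun kept its direction and its call in all 15 alternative fits, and Myc kept its direction and stayed without a call in all 15. Fosl1 lost its call with DESeq2 (log2 fold change -0.28, adjusted p = 0.071) and in 4 of the 6 fits that left out a library, whose values ran from -0.37 to -0.22; it held with the other scalings, filters and the replicate block. Egr1 turned to -0.064 without KD replicate 3 and reached 0.30 without KD replicate 1, with no call in any fit; the cause was not tested. Leaving out libraries gave 0.45 to 0.66 for Jun and 0.0089 to 0.15 for Myc, and 1988 to 2759 called rows in all. With no count filter, Fos and Atf3 were tested as well, so 0 measured members stayed untested instead of 2. Same-numbered libraries did not deviate together (correlations of deviations from the group mean -0.017, 0.0032 and 0.041), so the numbers are not shown to pair them; with the replicate block 2960 rows passed instead of 2730 (2718 in both), Jun had a log2 fold change of 0.51, Fosl1 -0.28, Egr1 0.13 and Myc 0.095. Library size alone split the calls into 1234 rises and 1633 falls instead of 1409 and 1321. With that scaling the log2 fold change was 0.47 for Jun, -0.33 for Fosl1, 0.10 for Egr1 and 0.052 for Myc. At an adjusted p of 0.01, 996 rises and 824 falls passed, Jun among the rises and Fosl1 not among the falls. The fit on Ensembl rows alone and the leave-one-out values of the ratios were chosen after seeing the data and changed no call or direction. Depth left Fos and Atf3, with at most 7 counts in a library, untested.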
